A study of Mus musculus with 8 samples.

Results

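Haemoglobin and its partner genes were followed through 8 samples of mouse embryonic heart. The 9 genes were chosen by name: the 7 globin genes Hbb-y, Hbb-bh1, Hbb-bs, Hbb-bt, Hba-x, Hba-a1 and Hba-a2, the erythroid haem synthesis gene Alas2 and the red cell membrane gene Slc4a1. All 9 were found among the 13637 Ensembl genes of the table through the GENCODE M21 annotation. RNA sequencing was done on hearts at embryonic day 9.5 (E9.5). The 4 samples called GOF (gain of function) had the genotype Bmp2GOF;Nkx2.5-Cre, in which the Cre is driven by Nkx2.5, a gene of heart progenitors, and the 4 samples called WT were wild type. The labels give no strain, do not say whether the wild-type embryos carried the Cre, and do not tell single embryos from pools or name litters. The p-values therefore speak of the spread among these 8 libraries alone, part or all of which may be technical.

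Haemoglobin is a tetramer of alpha-type and beta-type chains, each holding a haem. In the mouse the first red cells, called primitive, arise in the yolk sac and enter the circulation around the onset of the heartbeat. They carry the embryonic beta-type chains of Hbb-y and Hbb-bh1 with the embryonic alpha-type chain of Hba-x and the adult-type chains of Hba-a1 and Hba-a2. The adult beta-type genes Hbb-bs and Hbb-bt dominate in the definitive red cells made later in the fetal liver. Blood fills the heart at this stage, so a dissected heart brings red cells with it. In RNA from a whole organ, fewer red cells and less globin RNA per red cell cannot be told apart.

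The beta-type genes lie on the minus strand of chromosome 7 (GRCm38), Hbb-bt at chr7:103812524-103813996, Hbb-bs at chr7:103826534-103828096, Hbb-bh1 at chr7:103841637-103843164 and Hbb-y at chr7:103851749-103853216, each with 3 exons. The alpha-type genes lie on the plus strand of chromosome 11, Hba-x at chr11:32276400-32278116, Hba-a1 at chr11:32283511-32284465 and Hba-a2 at chr11:32296489-32297298, also with 3 exons each. Slc4a1 lies on the minus strand of the same chromosome at chr11:102348824-102366203 and has 20 exons. Alas2 lies on the plus strand of chromosome X at chrX:150547375-150570638 and has 11 exons. The coding sequences of Hbb-bs and Hbb-bt were identical at 443 of 444 bases, and those of Hba-a1 and Hba-a2 at 428 of 429. How reads were split within either pair cannot be known from the deposited values, so the values of single members of these pairs are uncertain and their sums are given too. The embryonic genes were further apart, with 76.35% identity between Hbb-y and Hbb-bh1 and 62.0% between Hba-x and Hba-a1.

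The sequences upstream of the start sites are shown for an embryonic and an adult beta-type gene, an adult alpha-type gene and Alas2. Whether they bear on the levels in these samples was not tested. RefSeq promoters (GRCm38.p6, 250 bases before to 50 after the first base of the gene in RefSeq) were on hand for 7 of the 9 members. Each line below gives the 250 bases before that RefSeq first base, 5′ to 3′ on the strand of the gene. For the 4 genes shown this base lies inside the GENCODE span given above, so each stretch overlaps that span. Capitals mark matches, on either strand, to GATAA (the core bound by GATA factors), CACCC (the box bound by KLF factors), CCAAT and TATAAA. No matches overlapped each other in the 4 promoters shown.
Hbb-y, chr7:103853208-103853457, minus strand: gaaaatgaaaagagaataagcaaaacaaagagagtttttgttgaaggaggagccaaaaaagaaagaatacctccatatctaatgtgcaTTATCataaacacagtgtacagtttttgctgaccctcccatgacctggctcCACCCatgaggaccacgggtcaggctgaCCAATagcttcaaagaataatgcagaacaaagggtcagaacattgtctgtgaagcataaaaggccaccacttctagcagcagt
Hbb-bs, chr7:103827929-103828178, minus strand: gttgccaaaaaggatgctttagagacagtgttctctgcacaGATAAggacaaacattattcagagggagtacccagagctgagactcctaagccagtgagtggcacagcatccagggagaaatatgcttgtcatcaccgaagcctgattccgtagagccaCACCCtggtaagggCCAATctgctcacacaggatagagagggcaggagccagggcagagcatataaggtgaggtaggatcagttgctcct
Hba-a1, chr11:32283422-32283671, plus strand: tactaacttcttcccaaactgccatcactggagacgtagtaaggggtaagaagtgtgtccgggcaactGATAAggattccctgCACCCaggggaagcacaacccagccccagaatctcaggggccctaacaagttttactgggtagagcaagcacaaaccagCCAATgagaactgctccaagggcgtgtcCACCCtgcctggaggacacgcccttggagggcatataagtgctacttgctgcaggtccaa
Alas2, chrX:150547167-150547416, plus strand: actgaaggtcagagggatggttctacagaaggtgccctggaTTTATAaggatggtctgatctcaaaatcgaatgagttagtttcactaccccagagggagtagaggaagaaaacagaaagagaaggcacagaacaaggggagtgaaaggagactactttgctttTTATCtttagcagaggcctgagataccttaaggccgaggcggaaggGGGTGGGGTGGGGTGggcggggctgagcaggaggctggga

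GATAA was found in 7 of the 7 member promoters, against 25.4% of the 32851 RefSeq promoters searched. CACCC was also in 7 of 7, against 57.5%, and both occurred together in 7 of 7, against 12.6%. CCAAT was in 5 of 7 (37.4% of all promoters) and TATAAA in 3 of 7 (13.6%). The promoters of Hba-a1 and Hba-a2 were identical at all 297 bases that could be set side by side, so these 7 sequences are not independent of each other. A match is a description of letters and not evidence of binding.

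The values analysed are the normalized reads deposited by the authors, in which the reads behind a sample numbered between 12287069 and 17927674. Heart muscle genes marked the tissue in every sample, since the summed level of 14 of them (among them Myh6, Myh7, Tnnt2 and Actc1) ran from 39220 to 46470 normalized reads in GOF and from 37590 to 42270 in WT. The summed level of the 7 globin genes was 14550, 4231, 2636 and 9050 normalized reads in GOF samples 1 to 4. In WT samples 1 to 4 it was 2533, 7207, 6918 and 5890. They took 1.457% of the reads in GOF sample 1 (exact binomial 95% interval 1.451 to 1.463%) and 0.2564% in WT sample 1 (0.254 to 0.2589%), and these intervals cover counting error only. The 2 extreme samples thus came 1 from each genotype, the highest and the lowest summed level differed 5.74-fold, and the groups overlapped.

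No difference between GOF and WT was found for any of the 9 members. Against a background of 56.3% of all 13637 genes past the threshold of an adjusted p under 0.05 (limma, Benjamini-Hochberg over all genes), 0 of 9 members passed, and 0 of 9 reached an unadjusted p under 0.05. Of all genes 28.2% were higher and 28.2% were lower in GOF. In 0 of 9 members were all GOF samples on the same side of all WT samples, while this held for 50.9% of all genes. The mean on the log2 scale was higher in GOF for 9 of 9 members, which share their samples and moved together, and those of Alas2 and Slc4a1 fell to the other side of 0 under another scaling (log2 fold changes of -0.000756 and -0.00568 with globin and mitochondrial genes left out of equal column totals). The direction also hung on single samples: without GOF sample 1, or without WT sample 1, it turned for 6 of 9 members (Hbb-y, Hbb-bh1, Hba-x, Hba-a2, Alas2 and Slc4a1), with Hbb-bh1 at -0.31 without GOF sample 1. With 4 samples a group and so wide a spread, the 95% interval for a member such as Hbb-y ran from a log2 fold change of -1.37 to 1.91, and a change inside such an interval was not detectable.

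Among the embryonic beta-type genes, Hbb-y stood at 5144, 1406, 838.8 and 3118 normalized reads in GOF samples 1 to 4 and at 827.7, 2300, 2372 and 1982 in WT samples 1 to 4. GOF sample 1 was the highest and WT sample 1 the lowest of the 8, and the WT values lay within the range of the GOF values except for WT sample 1. The GOF level was 2627 ± 1938 and the WT level 1870 ± 715 (SD over 4 samples each), a log2 fold change of 0.27 (SE 0.67, limma adjusted p = 0.765). Hbb-bh1, the other embryonic beta-type gene, stood at 3228, 824.8, 603.4 and 1993 in GOF samples 1 to 4 and at 614.9, 1712, 1627 and 1383 in WT samples 1 to 4. Here GOF sample 3 was the lowest of all, just under WT sample 1, and the groups overlapped. Its log2 fold change was 0.11 (SE 0.65, limma adjusted p = 0.904).

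**Figure D1:**
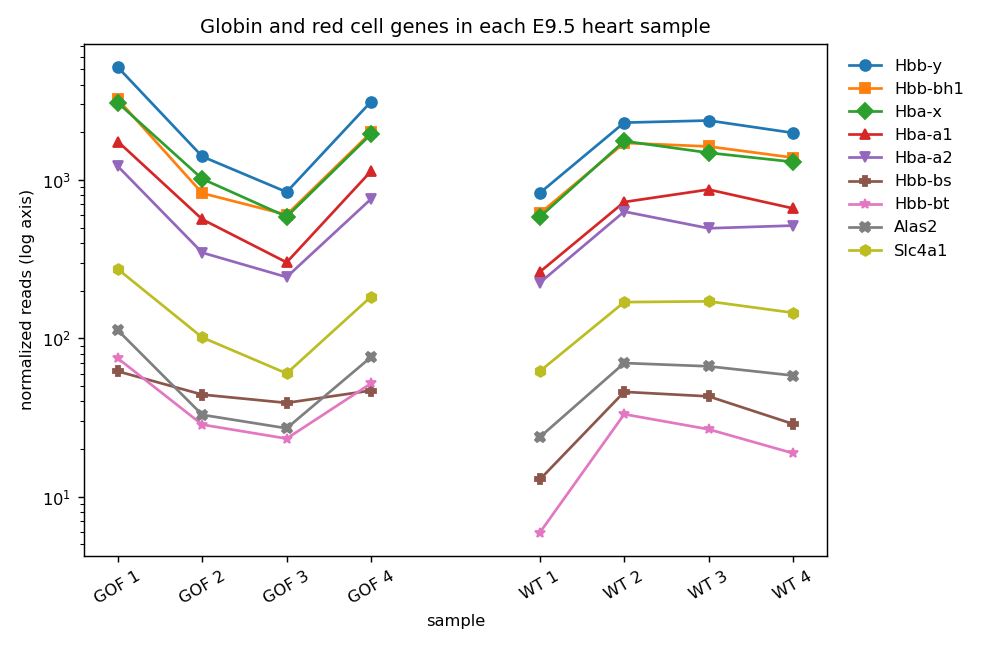
Level of each of the 9 genes in every sample, in normalized reads on a log axis, with the 4 GOF samples on the left and the 4 WT samples on the right; a line joins the values of 1 gene within a group and stands for no order of the samples. The lines of the 7 members other than Hbb-bs and Hbb-bt run nearly in parallel, while Hbb-bs is much flatter in GOF (1.58-fold from lowest to highest, against 6.13-fold for Hbb-y): GOF sample 1 is the highest of the 8 for all 9 genes, and WT sample 1 is the lowest of the WT samples for all 9.

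Among the alpha-type genes, the embryonic Hba-x stood at 3070, 1016, 586.3 and 1946 normalized reads in GOF samples 1 to 4 and at 584, 1759, 1484 and 1300 in WT samples 1 to 4. GOF sample 1 was again the highest and WT sample 1 the lowest, and the log2 fold change was 0.21 (SE 0.62, limma adjusted p = 0.801). The adult-type genes Hba-a1 and Hba-a2 together stood at 2967, 912, 545.4 and 1895 in GOF samples 1 to 4 and at 487.1, 1357, 1365 and 1177 in WT samples 1 to 4. The groups overlapped in the same way as for the embryonic genes. Taken singly, with the doubt about shared reads given above, Hba-a1 had a log2 fold change of 0.41 (SE 0.67, limma adjusted p = 0.645) and Hba-a2 of 0.28 (SE 0.61, limma adjusted p = 0.732).

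The adult beta-type genes were far lower. Per kilobase of transcript, the GOF mean was 76.5 normalized reads for Hbb-bs and 63.5 for Hbb-bt, against 4149 for Hbb-y, 2712 for Hbb-bh1, 2066 for Hba-x, 1341 for Hba-a1 and 1159 for Hba-a2. In WT the levels per kilobase fell in the same order from 2955 for Hbb-y to 52.0 for Hbb-bs and 30.1 for Hbb-bt. The drop from Hba-a2 to Hbb-bs was larger than the SD between samples in both groups, as was that from Hba-x (1600 ± 627) to Hba-a1 (901 ± 372) in WT. Every other pair of neighbours in this order differed by less than the larger of their SDs, although Hbb-y was above Hbb-bh1, and Hbb-bh1 above Hba-x, in 4 of 4 samples of each group. Hbb-bs and Hbb-bt together stood at 136.7, 72.72, 62.47 and 98.82 normalized reads in GOF samples 1 to 4 and at 18.81, 79.16, 69.74 and 47.66 in WT samples 1 to 4. WT sample 1 lay far below the other 7 samples, WT sample 4 was also below the GOF samples, and WT samples 2 and 3 fell among them.

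Singly, and again with shared reads in doubt, Hbb-bs stood at 61.95, 44.17, 39.17 and 46.86 in GOF samples 1 to 4 and at 12.86, 45.95, 43.06 and 28.83 in WT samples 1 to 4. It had the tightest GOF samples of the 9 members, with a coefficient of variation of 20.4% where the other 8 ran from 53.0% to 73.8%. Its log2 fold change was 0.67 (SE 0.42, limma adjusted p = 0.228). Hbb-bt stood at 74.78, 28.55, 23.3 and 51.95 in GOF samples 1 to 4 and at 5.944, 33.21, 26.68 and 18.84 in WT samples 1 to 4. Its lowest value, in WT sample 1, rested on 100 reads and its highest was 12.6-fold above it, the widest range of the 9. The log2 fold change of Hbb-bt, 1.12 (SE 0.63, limma adjusted p = 0.181), was the largest of the members and did not pass the threshold.

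The partner genes of the globins followed the embryonic globins. Alas2 encodes the erythroid form of the first and rate-limiting enzyme of haem synthesis, and stood at 112.5, 32.92, 27.07 and 76.16 normalized reads in GOF samples 1 to 4 and at 23.81, 69.85, 66.63 and 58.28 in WT samples 1 to 4. Slc4a1 encodes band 3, the anion exchanger that is the main membrane protein of the red cell, and stood at 273.3, 101.4, 60.12 and 183.3 in GOF samples 1 to 4 and at 62.02, 169.4, 171.3 and 145.1 in WT samples 1 to 4. Both were highest in GOF sample 1, and both had a log2 fold change of 0.06, with limma adjusted p = 0.940 for Alas2 (SE 0.59) and 0.943 for Slc4a1 (SE 0.58). Per kilobase the GOF means of Alas2 and Slc4a1 were 30.5 and 34.0 normalized reads and the WT means 26.8 and 30.1.

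The spread between samples of the same genotype was the plainest feature of these genes. The SD of log2(value + 1) within the groups, pooled over GOF and WT, was 0.97 for Hbb-y, 0.93 for Hbb-bh1, 0.89 for Hba-x and between 0.60 and 0.96 for the other 6 members, against a median of 0.10 over all 13637 genes. The members lay between the 99.03 and the 99.79 percentile of all genes by this measure, and 28 genes varied more than Hbb-y. In GOF the order of the samples was the same for 9 of 9 members: sample 1, then 4, then 2, then 3. In WT sample 1 was the lowest for 9 of 9, sample 2 the highest for 6 and sample 3 for 3. Over all 8 samples GOF sample 1 was the highest for 9 of 9, and the lowest was WT sample 1 for 7 and GOF sample 3 for 2 (Hbb-bh1 and Slc4a1).

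Most of this spread was shared. Taken relative to the other globins of the same sample, the within-group SD fell to between 0.085 and 0.137 for the 7 members other than Hbb-bs and Hbb-bt, while it was 0.62 for Hbb-bs and 0.38 for Hbb-bt. Over the 8 samples, Pearson's r between the log2 levels of 2 members was computed for 36 pairs. In the 21 pairs without Hbb-bs or Hbb-bt, r ran from 0.959 to 0.995 and Spearman's rho from 0.905 to 1, with adjusted p-values of at most 0.000325 for r and 0.00747 for rho (exact permutation of pairings, Benjamini-Hochberg over 36 pairs). Without the 2 samples farthest from the median of the first gene of the pair, r was still between 0.905 and 0.997 in these pairs. Taken as deviations from the mean of each genotype, r was between 0.972 and 0.997.

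The adult beta-type genes followed more loosely. In the 14 pairs of Hbb-bs or Hbb-bt with 1 of the other members, r ran from 0.659 to 0.863 and rho from 0.786 to 0.881, and the adjusted p (exact permutation) ran from 0.00943 to 0.0613 for r, with 12 of 14 pairs past 0.05. The lowest r was between Hbb-bs and Hbb-bh1. Without the 2 farthest samples r in these 14 pairs ran from 0.203 (Hbb-bs with Hba-a2) to 0.859 (Hbb-bt with Hba-x). The sharp drops came where GOF sample 1 and WT sample 1 were left out (Hbb-bs with Hba-a1 and Hba-a2, Hbb-bt with Alas2 and Slc4a1), and these relations rested on those samples. The deviations from the mean of each genotype had r from 0.729 to 0.949. Hbb-bs and Hbb-bt followed each other with r = 0.954 (adjusted p = 0.000198, exact permutation) and rho = 1, or r = 0.928 without the 2 farthest samples.

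Ratios within a sample do not depend on how that sample was scaled, and 6 were compared by exact two-sided permutation tests over the 70 ways to divide 8 samples, which cannot give a p under 0.0286. None passed, and all 6 overlapped between the groups. The reads of the adult beta-type genes were 1.633, 3.26, 4.331 and 1.933% of those of the embryonic beta-type genes in GOF samples 1 to 4 and 1.304, 1.973, 1.744 and 1.416% in WT samples 1 to 4. The 2 highest values were those of GOF samples 2 and 3, the GOF samples with the least globin RNA, and the other 2 GOF samples fell among the WT samples. On the log2 scale this ratio was -5.27 ± 0.65 for GOF against -5.98 ± 0.27 for WT (SD over 4 samples each), a 1.63-fold difference with exact permutation p = 0.143 (adjusted 0.171 over 6 ratios).

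Within the embryonic beta-type pair, Hbb-bh1 reads were 62.75, 58.68, 71.93 and 63.92% of Hbb-y reads in GOF samples 1 to 4 and 74.29, 74.43, 68.61 and 69.79% in WT samples 1 to 4. GOF sample 3 was the only GOF sample within the WT range. The log2 ratio was -0.64 ± 0.12 for GOF against -0.48 ± 0.06 for WT (SD over 4 samples each; exact permutation p = 0.0857, adjusted 0.171). Hba-x reads were between 102.7 and 111.4% of those of Hba-a1 plus Hba-a2 in GOF and between 108.7 and 129.6% in WT, with the same exact permutation p of 0.0857 (adjusted 0.171) and 1 GOF sample within the WT range. The ratio of alpha-type to beta-type reads was nearly level, between 70.95 and 83.71% in GOF and between 70.03 and 76.17% in WT (exact permutation p = 0.4, adjusted 0.4).

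Relative to the summed globins, Alas2 was at 0.7736, 0.7781, 1.027 and 0.8415% in GOF samples 1 to 4 and at 0.94, 0.9692, 0.9631 and 0.9894% in WT samples 1 to 4. GOF samples 1, 2 and 4 lay below all WT samples and GOF sample 3 above them, and the exact permutation p was 0.143 (adjusted 0.171). Slc4a1 was at 1.879, 2.397, 2.28 and 2.025% of the summed globins in GOF samples 1 to 4 and at 2.449, 2.351, 2.476 and 2.463% in WT samples 1 to 4. Only GOF sample 2 reached into the WT range, and the exact permutation p was 0.0571 (adjusted 0.171), the smallest of the 6 ratios. Both ratios were much tighter in WT, with an SD of 0.03 on the log2 scale for each, than in GOF, with 0.19 for Alas2 and 0.16 for Slc4a1.

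**Figure D2:**
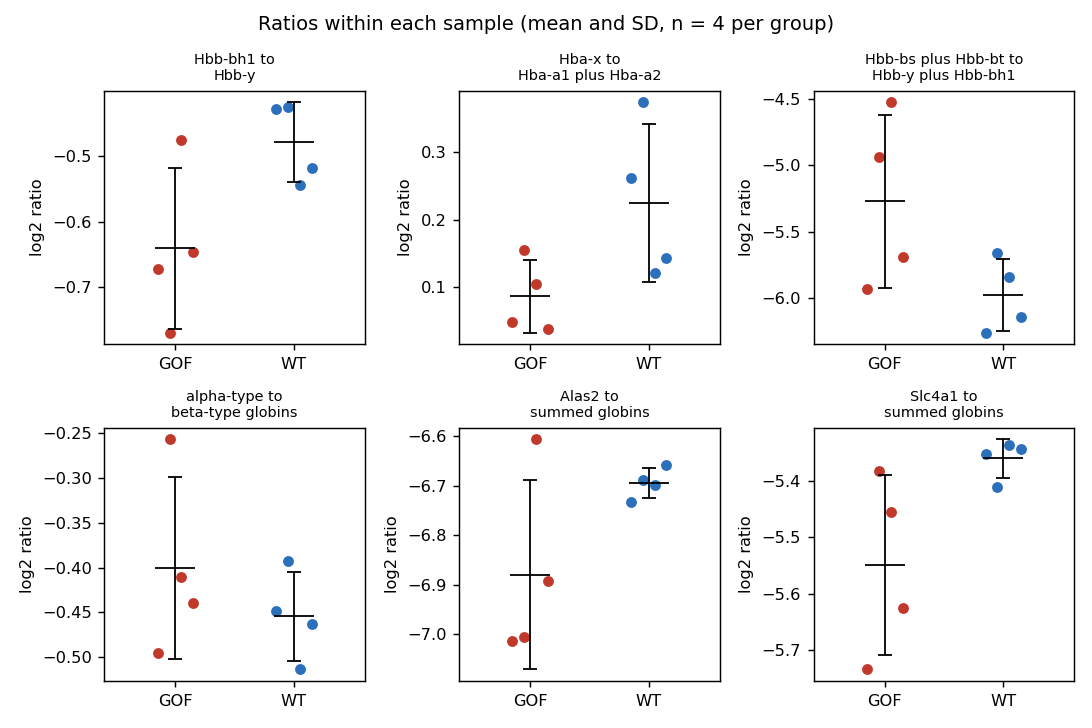
The 6 within-sample ratios on the log2 scale, 1 panel each, with 1 point per sample (4 GOF, 4 WT) and a bar for the mean with its SD; each panel has its own vertical axis, which does not start at 0. In every panel at least 1 sample of a group lies within the range of the other, and in the panel of adult to embryonic beta-type globins 2 GOF samples stand above the rest.

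The 10 genes whose pattern over the 8 samples was most like that of the summed globins had Pearson's r from 0.996 to 0.982 on the log2 scale, and among them were, in falling order, Car2, Ctse, Acp5, Hemgn, Pklr, Rhag, Add2, Rhd and Nfe2. They were picked for this likeness from 13628 genes, so r is a description and carries no test, and the points share their libraries with the members. Car2 encodes a carbonic anhydrase abundant in red cells, Pklr the pyruvate kinase of red cells and liver, and Rhag and Rhd proteins of the Rh complex of the red cell membrane. Car2 stood at 116.8, 45.82, 30.85 and 87.02 normalized reads in GOF samples 1 to 4 and at 30.43, 71.35, 61.14 and 57.03 in WT samples 1 to 4. Its order of samples in GOF was that of the members, WT sample 1 was the lowest of all, and the log2 fold change was 0.23 (SE 0.50, limma adjusted p = 0.728). In all, 61 genes other than the members reached r of 0.9 or more, and 8 of the 10 most alike belonged to the gene lists described next.

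Other genes of the red cell programme were read from lists. Their counts stand against 28.2% of all genes higher and 28.2% lower in GOF. Of 17 red cell membrane and skeleton genes, 11 had r of at least 0.9 with the summed globins, and their median r was 0.92 against -0.006 over all genes. Only Epb41, the gene of protein 4.1, rose (log2 fold change 0.22, SE 0.06, limma adjusted p = 0.00334), and none fell, with a median log2 fold change of -0.01 in the list and -0.002 over all genes. Of 13 erythroid receptor, chaperone and maturation genes 1 rose and none fell, with a median r of 0.88. The gene that rose was Bnip3l, which serves the clearance of mitochondria in maturing red cells and is also expressed in other cells. Its level was 508.7 ± 20.3 for GOF against 218.6 ± 8.29 for WT (SD over 4 samples each; log2 fold change 1.22, SE 0.04, limma adjusted p = 5.8e-12). Its r with the globins over all 8 samples was 0.13. Bnip3l stood at 489.6, 494.4, 532.8 and 517.9 normalized reads in GOF samples 1 to 4. GOF sample 1, with the most globin, was thus the lowest of the GOF samples for Bnip3l. In WT samples 1 to 4 Bnip3l stood at 216.1, 216.1, 230.6 and 211.6. In neither genotype did it have the sample order of the summed globins.

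Among 14 erythroid transcription factor genes 3 rose and 3 fell, with a median log2 fold change of 0.11 and a median r of 0.64. Neither count was above the share of all genes (28.2% higher and 28.2% lower). Gata1 and Klf1, whose products drive the erythroid programme through GATA and CACCC sites, followed the globins with r = 0.97 and 0.91 and did not pass, with log2 fold changes of 0.18 (SE 0.42, limma adjusted p = 0.755) and -0.19 (SE 0.41, limma adjusted p = 0.732). Bcl11a, which encodes a repressor of embryonic globin genes in definitive red cells, rose from 6.24 ± 1.39 in WT to 11.5 ± 2.56 in GOF (SD over 4 samples each; log2 fold change 0.78, SE 0.17, limma adjusted p = 0.00216). Its r with the summed globins over all 8 samples, both genotypes together, was 0.14. Within GOF, Bcl11a stood at 10.49, 14.69, 12.05 and 8.63 in samples 1 to 4. It was highest in GOF samples 2 and 3, those with the least globin RNA. Within WT it stood at 4.17, 7.12, 6.82 and 6.867, lowest in sample 1 as the globins were. Which cells held the Bcl11a RNA was not tested. Gata2, a factor of blood progenitors and of endothelium, fell by 0.79 on the log2 scale (SE 0.09, limma adjusted p = 1.81e-06), with every GOF sample below every WT sample.

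The 13 haem synthesis genes gave 1 that rose and 2 that fell, with a median log2 fold change of -0.16. Cpox, a late enzyme of the pathway, rose (log2 fold change 0.62, SE 0.15, limma adjusted p = 0.0109). Alas1, the form of the first enzyme used outside red cells, fell by 0.63 (SE 0.06, limma adjusted p = 2.06e-07). The r of Alas1 with the globins was -0.12, while 3 others (Fech, Abcb10 and Ppox) had r above 0.9. Of 15 genes of iron uptake, iron storage and haem breakdown 3 rose and 3 fell (median 0.007). In both lists the counts were below the share of all genes (28.2% higher and 28.2% lower). Tfrc, the transferrin receptor gene, rose from 333.3 ± 24.2 to 551.3 ± 57.3 (SD over 4 samples each) and Hmox1, the haem oxygenase gene, from 20.8 ± 2.06 to 55.5 ± 1.27, with limma adjusted p of 7.82e-06 and 1.44e-10. Over all 8 samples their r with the globins was 0.25 and 0.17, which a difference between the genotypes can lower. Within WT, Tfrc had the sample order of Hbb-y (298.2, 346.3, 351.7 and 336.9 in samples 1 to 4). Within GOF it did not (544, 473.2, 590.3 and 597.8). Hmox1 stood at 56.52, 55.14, 56.5 and 53.88 in GOF samples 1 to 4. In WT samples 1 to 4 it stood at 19.84, 21.61, 23.2 and 18.47. In neither genotype did Hmox1 have the sample order of the summed globins. Of the 2 other globin genes tested, the theta-type Hbq1b followed the members with r = 0.97 and Mb, the myoglobin gene, did so less (r = 0.44), and neither passed the threshold.

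**Figure D3:**
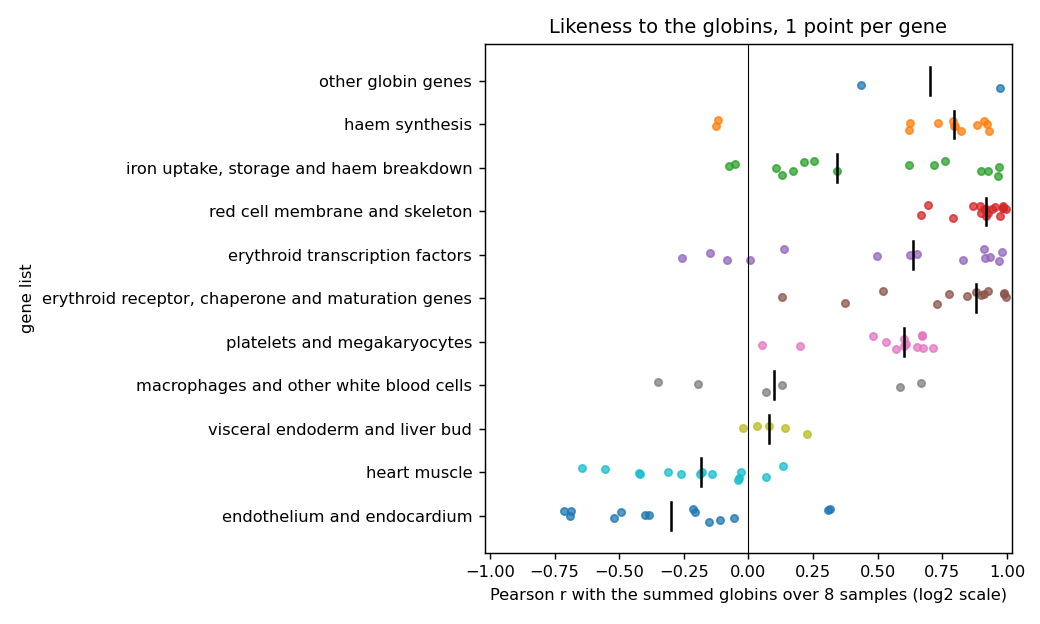
Pearson's r over 8 samples between the log2 level of a gene and the log2 level of the summed globins, with 1 point per gene, 1 row per gene list and a bar at the median of the list. Red cell membrane and erythroid maturation genes crowd at the right (medians 0.92 and 0.88), while heart muscle and endothelial genes lie mostly left of 0 (medians -0.18 and -0.30).

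Markers of other cells that a heart sample could hold had lower r with the globins. Heart muscle genes had a median r of -0.18 and endothelial genes of -0.30. Platelet and megakaryocyte genes stood between, with a median r of 0.60 and none of 13 at 0.9. Their summed level was 743.2, 396.9, 505.4 and 487 normalized reads in GOF samples 1 to 4 and 218, 247, 222.1 and 210.3 in WT samples 1 to 4, so that every GOF sample lay above every WT sample. Of the 13, 4 rose and none fell, among them Thbs1, Vwf and F2rl2, against 28.2% of all genes higher. Thbs1 and Vwf, which are also expressed in endothelium, carried the gap in the sum: the other 11 genes summed to 344.6, 89.84, 133.6 and 165.1 in GOF samples 1 to 4 against 86.5, 105.1, 93.19 and 88.24 in WT samples 1 to 4, and the groups overlapped. GOF sample 1, the sample with the most globin, had the highest summed platelet level too, and the part of the platelet genes in the globin values was not tested. Of 16 genes of macrophages and other white cells 6 were analysed here, with a summed level of 22.4 to 35.4 in GOF and 20.6 to 23.3 in WT. Of 14 genes of visceral endoderm and liver bud 5 were analysed, with a summed level of 10.4 to 18.2 in GOF and 9.64 to 52.4 in WT. The highest of these sums was in WT sample 2, where Afp stood at 39.6, and the globins of that sample were not apart from those of WT samples 3 and 4.

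Since Car2 followed the summed globins so closely, the comparison was repeated with the log2 level of Car2 as a covariate, a fit added after the values were seen, which compares GOF and WT at equal Car2. The choice of Car2 used these same samples, and the background was then 58.3% of genes past the threshold, with 29.2% higher and 29.1% lower. Car2 itself had a log2 fold change of 0.23 (SE 0.50) that did not pass. The fit therefore moves genes that follow Car2 towards lower values in GOF. The SE of Hbb-y fell from 0.67 to 0.07 and its log2 fold change was -0.04 (limma adjusted p = 0.646). At equal Car2 3 of 9 members passed, Hbb-bt higher in GOF with a log2 fold change of 0.85 (SE 0.27, limma adjusted p = 0.0411), and Hbb-bh1 and Slc4a1 lower with -0.19 (SE 0.07, limma adjusted p = 0.0320) and -0.21 (SE 0.07, limma adjusted p = 0.0280). The log2 fold changes of the other 6 were between -0.21 (Alas2, limma adjusted p = 0.0665) and 0.53 (Hbb-bs) and did not pass, with Hba-x at -0.07, Hba-a1 at 0.10 and Hba-a2 at -0.002. Relative to Car2, the log2 level of Hbb-bt was -0.643, -0.683, -0.405 and -0.744 in GOF samples 1 to 4 and -2.356, -1.103, -1.197 and -1.598 in WT samples 1 to 4. All GOF samples thus lay above all WT samples for Hbb-bt, and in none of the other 8 members were the groups apart. The share of all genes apart relative to Car2 was not computed, and on the values not taken relative to Car2 50.9% of all genes were apart. The gap for Hbb-bt is therefore a description and not a result about this gene. Reads shared between Hbb-bt and Hbb-bs also leave the value of Hbb-bt in doubt. Their sum was 98.82 with Car2 at 87.02 in GOF sample 4, and 69.74 with Car2 at 61.14 in WT sample 3. Relative to Car2, the sum in GOF sample 4 was thus not above that in WT sample 3.

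These calls at equal Car2 were not firm. Hbb-bt passed with Hemgn or Rhag in place of Car2 (limma adjusted p = 0.0103 and 0.0288), but not when any of GOF samples 1 to 4 was left out (limma adjusted p = 0.0622, 0.0976, 0.140 and 0.0615), nor without WT sample 3 or WT sample 4 (limma adjusted p = 0.0521 and 0.0976). Its log2 fold change stayed between 0.57 and 0.99 when any 1 sample was left out. Hbb-bh1 had log2 fold changes of -0.04 with Hemgn and -0.08 with Rhag (limma adjusted p = 0.629 and 0.655), and Slc4a1 of -0.08 and -0.11 (limma adjusted p = 0.573 and 0.269). Hbb-bh1 also lost its call when GOF sample 2, GOF sample 4, WT sample 1, WT sample 3 or WT sample 4 was left out (log2 fold changes of -0.126, -0.169, -0.194, -0.147 and -0.186), and Slc4a1 when GOF sample 1, GOF sample 3, GOF sample 4 or WT sample 4 was left out (-0.203, -0.211, -0.176 and -0.189). Other members passed in their place in some of these fits: Hba-a1 with Rhag (log2 fold change 0.21, limma adjusted p = 0.0309) and without WT sample 3, Hba-x without GOF sample 2, and Alas2 both without WT sample 1 and without GOF sample 3 (-0.36 in the latter, limma adjusted p = 0.000337). At equal Car2 10 of the 13 haem synthesis genes were lower and 1 was higher in GOF. The membrane and skeleton list gave 7 lower and 2 higher of 17 genes, with a median log2 fold change of -0.21. There were 5 lower and 4 higher of 14 transcription factor genes (median 0.02), and 3 lower and 2 higher of 12 maturation genes (median -0.02). Of all genes 29.1% were lower and 29.2% higher in this fit, and these last 2 lists lay near those shares. Tmem14c, a mitochondrial transporter of haem precursors, was lower by 0.43 at equal Car2 (SE 0.06, limma adjusted p = 1.99e-05). Without the covariate its log2 fold change was -0.35 (SE 0.18, limma adjusted p = 0.1455), which did not pass, and the groups overlapped. The count of lower haem synthesis genes was between 8 and 10 when any 1 sample was left out, and 10 with Hemgn and 9 with Rhag in place of Car2.

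**Figure D4:**
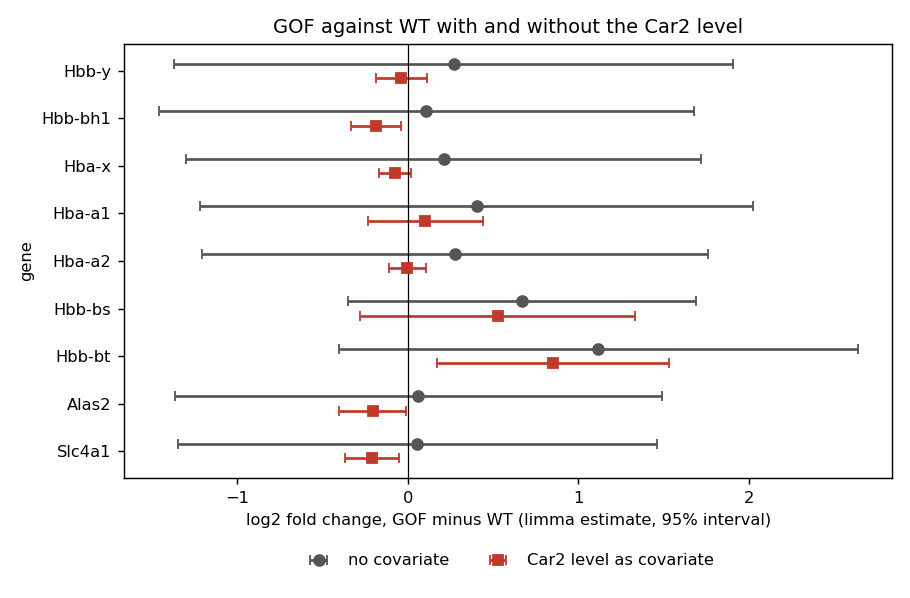
Log2 fold change of each member, GOF minus WT, as estimated by limma with its 95% interval, without a covariate (grey circles) and with the Car2 level as a covariate (red squares), n = 4 samples per group. The intervals are far narrower with the covariate (Hbb-y from -1.37 to 1.91 without it, -0.19 to 0.11 with it), where that of Hbb-bt lies above 0 and those of Hbb-bh1, Slc4a1 and Alas2 lie below 0, the last without an adjusted p under 0.05.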

How the data were processed

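RNA was made into polyA libraries, per the labels. RSEM 1.2.3, cutadapt 1.6, CASAVA 1.8.2, FastQC and the GRCm38 build are named, without roles, per the submitters' processing notes. The authors deposited a signal of normalized reads per gene. How these were normalized or filtered, and whether strand was used, is not given in the sources used here. In each column the values were whole reads plus 0.5 times 1 scale (100% of values, tolerance 0.01), and 3 reads were worth 0.17 to 0.242.

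The test was limma 3.58.1 (R 4.3.3, eBayes with trend and robust prior) on log2(value + 1), two-sided, with Benjamini-Hochberg adjustment over 13637 genes. The pseudocount makes fold changes understate those of low genes. The reads implied by these values were used only for depth, shares and an alternative with limma voom weights, and no count model was run. On simulated data limma was tested before use. Ratios, correlations and exact permutations used all 8 samples. Named are the 9 members, up to 4 genes per list with the smallest p, and the 10 genes most like the globins. Gata1, Klf1, Fech, Abcb10 and Ppox were named after their values were seen. Some genes that this rule names, and a fit with another covariate that was also run, are not reported here. The members and lists were chosen with earlier results of these data known.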

Additional observations from a re-analysis of the deposited data

How the results depend on the processing

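Under 16 settings without the Car2 covariate, each of the 9 members stayed above an adjusted p of 0.05 (limma, 144 fits, smallest adjusted p = 0.108). With globin and mitochondrial genes left out of equal column totals, Alas2 was at -0.000756 and Slc4a1 at -0.00568 on the log2 scale, and 40.54% of the genes past the threshold were higher in GOF, against 49.99% with the deposited scaling. With the Car2 covariate 3 members passed, and Hbb-y (-0.0394), Hbb-bh1 (-0.188), Hba-x (-0.0748), Hba-a2 (-0.00206), Alas2 (-0.206) and Slc4a1 (-0.208) changed sign. The log2 fold changes of the covariate genes themselves were 0.23 for Car2, 0.12 for Hemgn and 0.14 for Rhag, and none passed. With Hemgn, Hbb-y (0.12), Hba-x (0.07) and Hba-a2 (0.14) stayed above 0, as they did with Rhag (0.07, 0.03 and 0.11). The count of members past the threshold was 1 with Hemgn (Hbb-bt) and 2 with Rhag (Hbb-bt and Hba-a1) in place of Car2. The cause was not tested.

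Leaving out 1 sample at a time, the log2 fold change ran from -0.164 to 0.707 for Hbb-y, -0.315 to 0.491 for Hbb-bh1, -0.175 to 0.620 for Hba-x, 0.00709 to 0.851 for Hba-a1, -0.122 to 0.650 for Hba-a2, 0.291 to 0.878 for Hbb-bs, 0.632 to 1.399 for Hbb-bt, -0.299 to 0.373 for Alas2 and -0.290 to 0.432 for Slc4a1. The sign of Hbb-y, Hbb-bh1, Hba-x, Hba-a2, Alas2 and Slc4a1 turned without GOF sample 1 and without WT sample 1, and that of Hbb-bh1, Alas2 and Slc4a1 also without GOF sample 4. At equal Car2 between 0 and 3 members passed (1 without GOF sample 1, 0 without GOF sample 4 or WT sample 4), while 8 to 10 haem synthesis genes were lower.

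With the replicate number as a replicate block, 0 members passed, 3678 genes were higher and 3677 lower. Same-numbered samples did not deviate together (r from -0.137 to 0.00674, and 0 samples matched best with their own number), so the numbers were not taken to pair the samples. Sign-flip tests of paired ratios cannot give a p under 0.125.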
